A study of Sus scrofa with 16 samples.

Results

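PPARGC1A encodes PGC-1alpha, a transcriptional coactivator, and was 1 of 6765 genes named on the array, represented by 1 probe set among the 23935 tested. Its probe set was found by the symbol in the platform annotation, a rule that uses no measured value, although the gene was picked with earlier results of these data known. PGC-1alpha does not bind DNA itself: it docks on nuclear receptors and other transcription factors and brings histone acetyltransferases and Mediator to their target genes. In heart and skeletal muscle it is known for driving genes of mitochondrial biogenesis, the respiratory chain and fatty acid oxidation. Its own gene is known to be induced by cAMP signalling through CREB, by calcium signalling through MEF2 and by AMP-activated protein kinase, and its transcript is known to rise for some hours after a bout of exercise in skeletal muscle.

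The 2 groups were 8 exercise-trained and 8 sedentary Yorkshire x Landrace pigs of 2 to 3 months, each with 4 females and 4 castrated males, sampled 4 to 5 weeks into the training protocol. RNA came from crushed left ventricle and was hybridised to a porcine Affymetrix array, 1 array per pig. The labels do not give the kind or intensity of training or the time between the last bout and sampling. In whole myocardium, fewer cells of a type and less RNA per cell cannot be told apart.

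On the array's own poly-A control probe sets, 11 arrays had a mean log2 signal of 7.22 to 8.20, and the other 5 arrays had 5.81 to 6.31. The low 5 were exercised 7 and 8 and sedentary 6, 7 and 8. The labels name no batch, so the sets are called here by their poly-A control signal. They also differed in the actin control probe sets. There the 3-prime minus 5-prime log2 signal was 1.27 to 1.85 in the low 5 arrays and 2.35 to 2.99 in the other 11. For GAPDH it was -0.14 ± 0.04 (SD, n = 5) against -0.19 ± 0.05 (SD, n = 11). What lies behind the split was not tested. Every array correlated with the average of the remaining 15 at 0.988 to 0.994. Of 63 marker genes listed for 11 cell types, 47 were measured, among them the ventricular markers MYH7 at a mean log2 of 14.51 and MYL2 at 14.61. With limma's moderated test and Benjamini-Hochberg adjustment over all probe sets, 4 of the 47 passed an adjusted p of 0.05 for training: the T-cell gene CD3G and the B-cell gene CD79B were higher in exercised pigs, and the natriuretic peptide gene NPPA and the lymphocyte cytokine receptor gene IL7R were lower. That was 8.51% of the markers, against 13.4% of all tested probe sets.

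The PPARGC1A probe set was bright, with a mean log2 signal of 10.22 over the 16 arrays, above 94.97% of the tested probe sets. Exercised pigs 1 to 8 had log2 signals of 9.97, 9.87, 10.07, 9.94, 10.67, 9.80, 10.31 and 10.29. Sedentary pigs 1 to 8 had log2 signals of 10.22, 10.29, 10.70, 10.28, 9.58, 10.33, 10.64 and 10.56. Of the exercised pigs 7 of 8 lay below the sedentary mean and exercised 5 lay above it, while sedentary 5 had the lowest value of all 16, so the groups overlapped over nearly their whole range. The mean was 10.11 ± 0.29 in exercised pigs and 10.33 ± 0.35 in sedentary pigs (SD, n = 8 each).

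The difference between exercised and sedentary pigs, averaged over the sexes, was -0.21 on the log2 scale (SE 0.137, 95% interval -0.50 to 0.08), or 0.863-fold. It did not pass the threshold (limma, adjusted p = 0.355). For comparison, 13.4% of all tested probe sets passed it, 6.48% higher and 6.88% lower in exercised pigs. An exact permutation test over all 12870 assignments of the arrays gave p = 0.209, two-sided. Leaving out sedentary 5 brought the difference to -0.33 (limma, adjusted p = 0.0283; exact permutation p = 0.035), while the other 15 single omissions did not pass. Leaving out exercised 5, the highest exercised pig, gave -0.27, and the exact permutation p was then 0.0761. Whether sedentary 5 differed from the others in handling or tissue sampled was not tested.

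The 5 arrays with low poly-A control signal all lay above the 16-array median of PPARGC1A, with a mean log2 of 10.43 ± 0.16 (SD, n = 5) against 10.13 ± 0.35 (SD, n = 11) in the other arrays. They held 2 exercised and 3 sedentary pigs. Within the 5 arrays the exercised mean was 0.21 lower on the log2 scale than the sedentary mean, and within the 11 arrays it was 0.16 lower (exact permutation p = 0.463). The limma fit averaged over the sexes gave -0.07 in the 11 arrays, since that fit weights the 2 sexes equally, and -0.19 (adjusted p = 0.365) over all 16 arrays with the set as a block.

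**Figure D1:**
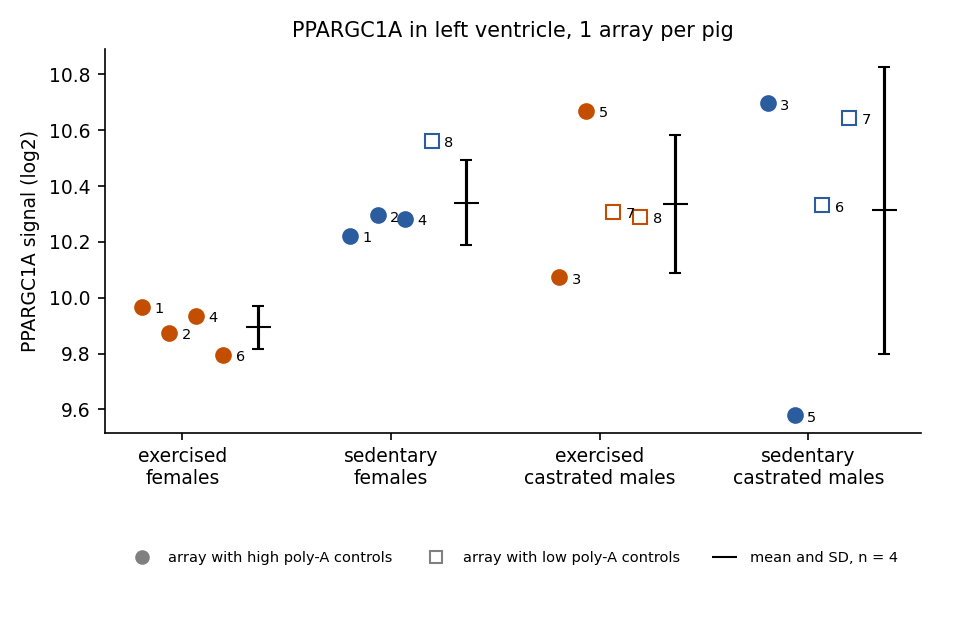
PPARGC1A log2 signal (vertical axis) of each pig, by training and sex, with replicate numbers beside the points; filled circles are the 11 arrays with high and open squares the 5 with low poly-A control signal, and the bars give the mean and SD of 4 pigs. The 4 exercised females sat between 9.80 and 9.97, below all 4 sedentary females, while the castrated males of both groups covered one range.

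The sexes were then taken apart. Exercised females 1, 2, 4 and 6 had log2 signals of 9.97, 9.87, 9.94 and 9.80, against 10.22, 10.29, 10.28 and 10.56 in sedentary females 1, 2, 4 and 8. The 2 groups of females did not overlap. The same was true, in the same direction, of 6.37% of all tested probe sets. Exercised females averaged 9.89 ± 0.08 and sedentary females 10.34 ± 0.15 (SD, n = 4 each), a difference of -0.45 (SE 0.194, 95% interval -0.86 to -0.03), or 0.734-fold. The difference did not pass (limma, adjusted p = 0.228), while 3.72% of all probe sets passed in that comparison. The exact permutation p over females alone was 0.0286, the smallest that 70 assignments allow. All 4 exercised females were on arrays with high poly-A control signal, and within the 11 such arrays the female difference was -0.37 (limma, adjusted p = 0.357).

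Exercised castrated males 3, 5, 7 and 8 had log2 signals of 10.07, 10.67, 10.31 and 10.29, against 10.70, 9.58, 10.33 and 10.64 in sedentary castrated males 3, 5, 6 and 7. The exercised range lay inside the sedentary range. Exercised castrated males averaged 10.33 ± 0.25 and sedentary castrated males 10.31 ± 0.52 (SD, n = 4 each), a difference of 0.02 (95% interval -0.39 to 0.44; limma, adjusted p = 0.977), and 3.77% of all probe sets passed in that comparison. The sign depended on single pigs, since the difference was -0.22 without sedentary 5 and -0.09 without exercised 5. The difference between the sexes in the training effect, female minus male, was -0.47 (SE 0.274, 95% interval -1.05 to 0.11), which did not pass. No probe set of the array passed for that term with limma, and 2.59% had an unadjusted p under 0.05. Averaged over training, females were 0.21 lower than castrated males (95% interval -0.50 to 0.08; limma, adjusted p = 0.598), and 0.0919% of all probe sets passed.

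**Figure D2:**
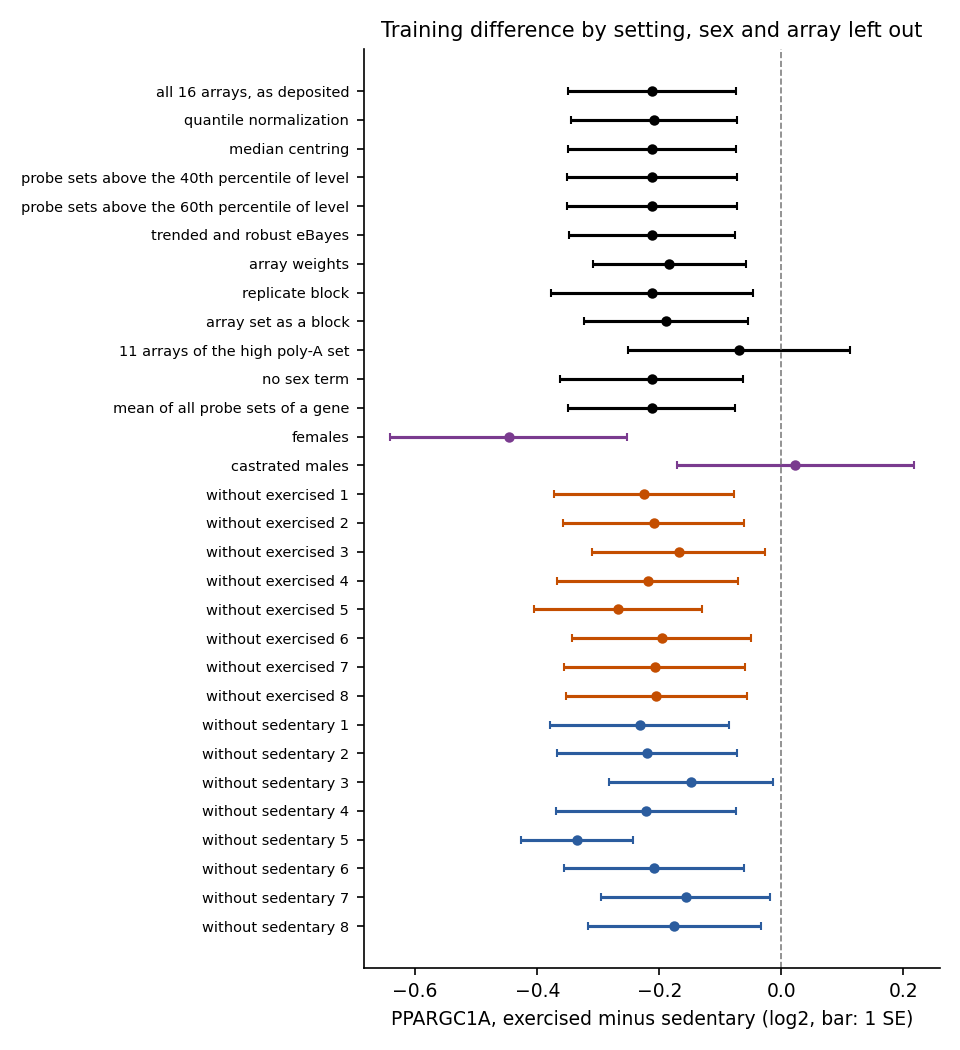
Difference in PPARGC1A, exercised minus sedentary, on the log2 scale (horizontal axis, bar 1 SE) under each processing alternative (black), in each sex (purple) and with each array left out (orange for exercised, blue for sedentary arrays). All estimates but that of the castrated males were below 0, from -0.07 in the 11 arrays with high poly-A control signal to -0.33 without sedentary 5 among the fits that average over the sexes.

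PPARGC1A was next set against the genes with an NDUF prefix, most of which encode subunits or assembly factors of respiratory complex I, which passes electrons from NADH to ubiquinone. NDUFA4 carries the prefix but is now assigned to complex IV. The annotation gave 36 such genes on 45 probe sets, and the brightest probe set stood for each gene. With training 29 of the 36 genes were higher and 7 lower in exercised pigs, with a median difference of 0.07 on the log2 scale, against 0.01 over the 6765 named genes. Of the 36, 1 passed the threshold upward and 0 downward, or 2.78%. By the same rule, of the brightest probe sets of all named genes 5.11% passed upward and 4.91% downward.

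The gene that passed was NDUFA1, which encodes a small accessory subunit. Its log2 signal ran from 12.57 through a median of 12.78 to 12.93 in exercised pigs, and from 12.44 through a median of 12.53 to 12.62 in sedentary pigs. All 8 exercised pigs lay above the sedentary mean, and the groups overlapped narrowly. The difference was 0.24 (limma, adjusted p = 0.0224). A dimmer NDUFA1 probe set went the other way, by -0.44 (limma, adjusted p = 0.00028), so the probe sets of NDUFA1 disagreed. The call was lost when probe sets below the 40th or 60th percentile of mean level were left out (limma, adjusted p = 0.062 and 0.12). With the mean of both NDUFA1 probe sets the sign turned, to -0.10 (limma, adjusted p = 0.252). The correlation of its brightest probe set with PPARGC1A was r = -0.24.

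Across the 16 arrays, Pearson's r between PPARGC1A and the 36 NDUF genes ran from -0.62 to 0.53 with a median of -0.11. It was above 0 for 13 genes and below 0 for 23. Over all 23934 other probe sets the median was 0.00, and the middle 95% lay between -0.57 and 0.55. The permutation test with 100000 resamples, adjusted over all probe sets, called 0 of the 36 genes, and 0 of all probe sets. At an unadjusted p under 0.05 it called 5 of the 36, against 10.1% of all probe sets. Spearman's rho called 0 after adjustment and 7 at an unadjusted p under 0.05, against 12.8% of all probe sets. The smallest p that 100000 resamples allow is 1e-05, and 1 probe set alone at that p could not pass after adjustment over all probe sets. The smallest p for r among the 36 genes was 0.01, above that limit, so the limit did not set their count of 0. With 16 arrays and adjustment over all probe sets, the count of 0 still says little about single genes.

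**Figure D3:**
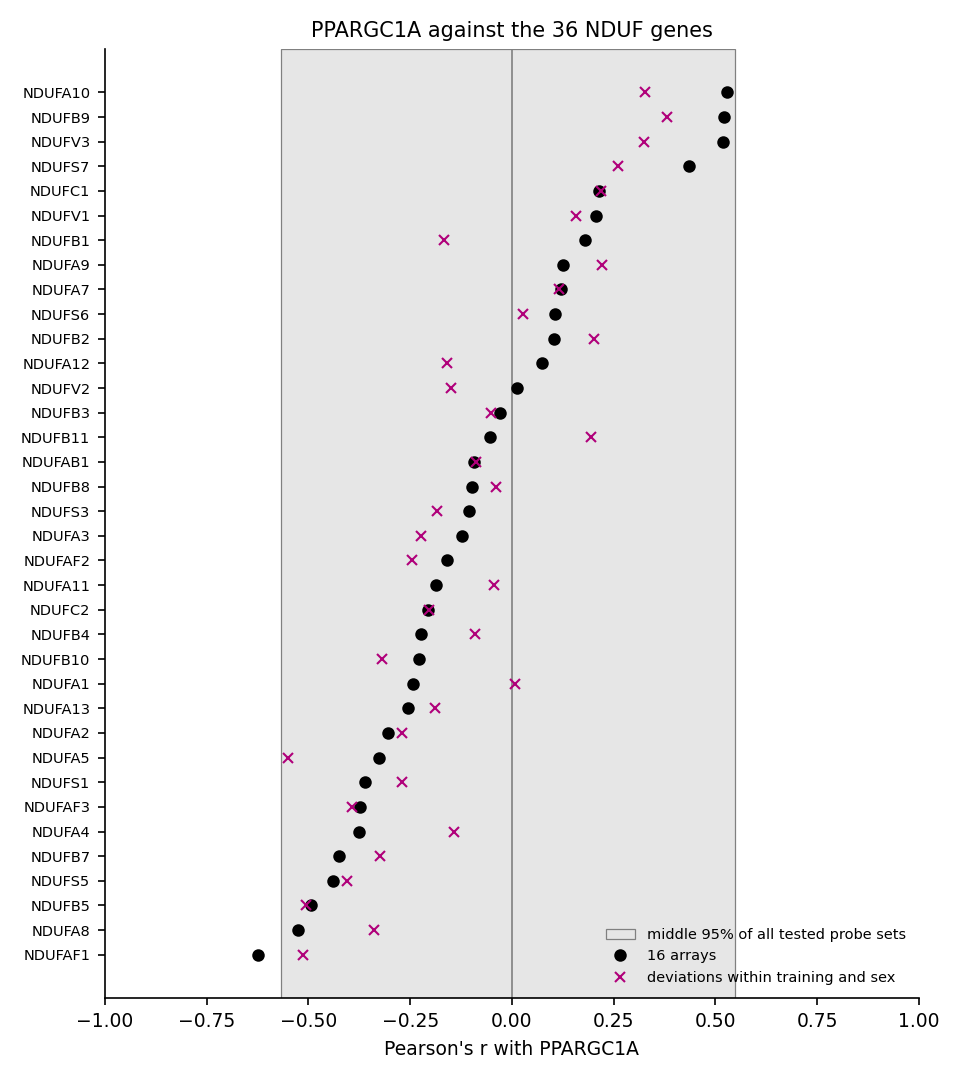
Pearson's r of each of the 36 NDUF genes with PPARGC1A over 16 arrays (black points) and over deviations from the means of each training and sex group (crosses), with the middle 95% of all tested probe sets shaded. The black points ran from -0.62 for NDUFAF1 to 0.53 for NDUFA10, and NDUFAF1 was the 1 gene outside the shaded range.

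The 5 genes for core subunits, which carry the redox centres and the quinone site, had a median r of 0.01. The 3 genes for assembly factors had a median of -0.37. The other 28, counted as accessory subunits with NDUFA4 (r = -0.38) among them, had a median of -0.11. The 4 highest were NDUFA10 (r = 0.53, rho = 0.59), NDUFB9 (r = 0.52, rho = 0.59), NDUFV3 (r = 0.52, rho = 0.62) and the core subunit gene NDUFS7 (r = 0.44, rho = 0.52). Their permutation p lay between 0.0363 and 0.0936 for r and between 0.0125 and 0.0406 for rho, and adjusted p between 0.491 and 0.512 for r and between 0.321 and 0.376 for rho. The 4 lowest were NDUFAF1, an assembly factor gene (r = -0.62, rho = -0.67, permutation p = 0.01, adjusted p = 0.484), NDUFA8 (r = -0.53, rho = -0.64), NDUFB5 (r = -0.49, rho = -0.51) and NDUFS5 (r = -0.44, rho = -0.43). Over these 4 the permutation p lay between 0.01 and 0.0867 for r and between 0.00554 and 0.0976 for rho, and adjusted p between 0.484 and 0.509 for r and between 0.31 and 0.45 for rho.

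Several of these relations ran along the 2 array sets. NDUFV3 was higher in all 5 arrays with low poly-A control signal than in any of the other 11, at a mean log2 of 7.71 ± 0.11 (SD, n = 5) against 6.95 ± 0.20 (SD, n = 11). NDUFAF1 was lower in all 5 than in any of the other 11, at 7.78 ± 0.22 (SD, n = 5) against 8.33 ± 0.13 (SD, n = 11). NDUFA10 and NDUFS7 were each higher in 4 of the 5 than in any of the 11, and NDUFA8 was lower in 3 of the 5. Within the 11 arrays r was 0.32 for NDUFV3, 0.37 for NDUFA10, 0.37 for NDUFB9 and 0.23 for NDUFS7, and it was -0.54 for NDUFAF1 and -0.42 for NDUFA8. Over deviations from the means of training, sex and array set together, r was 0.20 for NDUFV3, 0.12 for NDUFA10, 0.28 for NDUFB9 and 0.04 for NDUFS7, and it was -0.55 for NDUFAF1 and -0.29 for NDUFA8. The 4 highest genes thus had a smaller r once these means were taken out. A dimmer NDUFAF1 probe set had r = -0.40 over the 16 arrays, -0.10 within the 11 arrays and 0.07 over these deviations. The values of NDUFAF1 thus hold for its brightest probe set only.

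NDUFA10 shows the pattern by animal. Exercised pigs 1 to 8 had log2 signals of 9.91, 9.94, 10.16, 9.97, 10.29, 10.37, 10.22 and 10.45. Sedentary pigs 1 to 8 had log2 signals of 10.17, 10.34, 10.35, 10.02, 10.21, 10.63, 10.49 and 10.53. The 3 lowest were exercised females 1, 2 and 4, which were also low in PPARGC1A, while exercised 6 and sedentary 5 were low in PPARGC1A and not in NDUFA10. Exercised 6 and sedentary 5 were the 2 arrays farthest from the median PPARGC1A level. Without them r was 0.73 for NDUFA10 and -0.58 for NDUFAF1, and the median over the 36 genes was 0.06 with 20 above 0. The sign of the group median therefore rested on those 2 arrays.

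**Figure D4:**
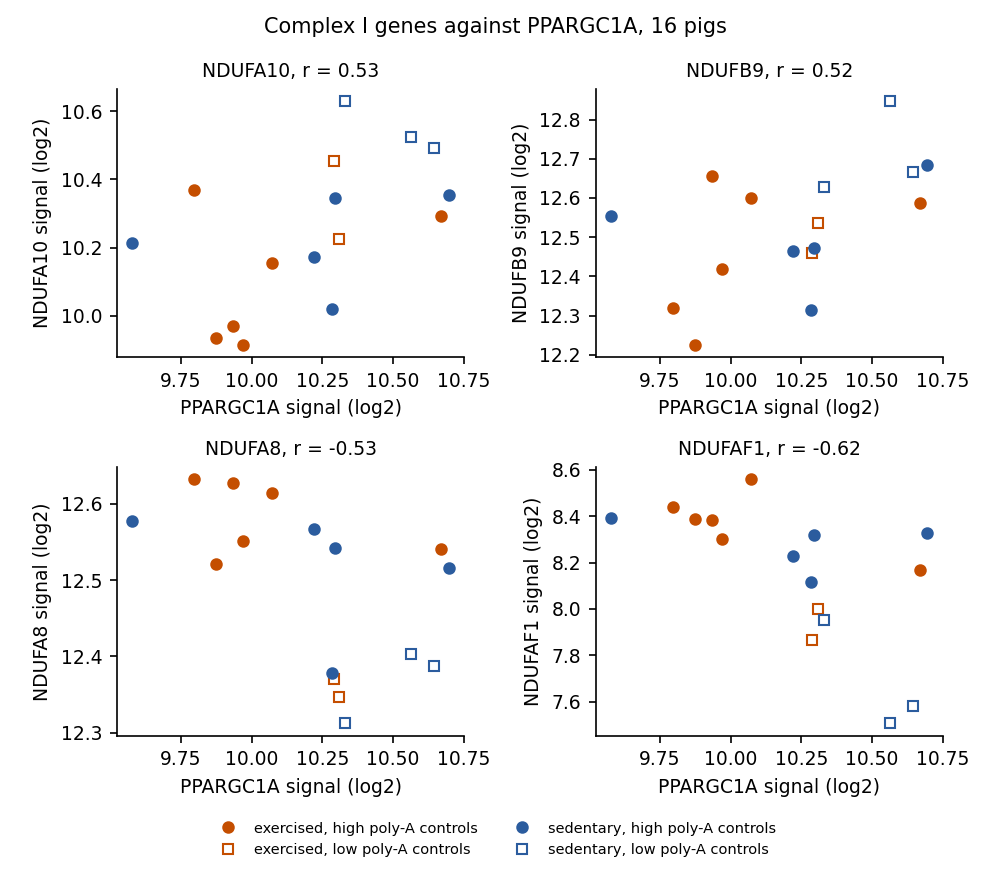
Log2 signal of NDUFA10, NDUFB9, NDUFA8 and NDUFAF1 (vertical axes) against that of PPARGC1A (horizontal axes) in 16 pigs, with exercised pigs in orange, sedentary pigs in blue and the 5 arrays with low poly-A control signal as open squares. The open squares lie at the bottom of the NDUFAF1 panel, below all 11 filled points, and all lie above the median of PPARGC1A.

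With the means of each training and sex group taken out, the median r of the 36 genes was -0.15, and NDUFA10 had 0.33 and NDUFAF1 -0.51. With the array set taken out as well the median was -0.23, NDUFA10 had 0.12 and NDUFAF1 -0.55. Among the 8 exercised pigs alone the median was 0.13, and among the 8 sedentary pigs alone it was -0.14. NDUFB5 had r = 0.11 in exercised and -0.75 in sedentary pigs, and NDUFS5 had -0.05 in exercised and -0.80 in sedentary pigs. The difference between these values was not tested.

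Genes around PPARGC1A were taken from 13 lists of its relatives, docking partners, regulators and targets. Of 289 listed symbols, 173 other than PPARGC1A were measured. For training 15 of the 173 passed, 4 upward and 11 downward, or 2.31% and 6.36%, against 5.11% and 4.91% of all named genes. The median difference was 0.00 on the log2 scale, against 0.01 over all named genes. Among probe sets above the 40th percentile of mean level 6 of 164 passed, or 3.66% against 4.39% of all probe sets kept, namely PPRC1, PRKAG2, HES1, NR4A3, CREM and MSTO1. Above the 60th percentile 2 of 147 passed, NR4A3 and MSTO1, or 1.36% against 0.804% of all probe sets kept. Without sedentary 3 the count was 9. The calls of PPRC1, HES1, DNMT3B, NR4A3, PCK1 and MSTO1 held in every alternative that kept their probe set. The dim probe sets of DNMT3B and PCK1 were dropped by both level filters, and those of PPRC1 and HES1 by the filter at the 60th percentile. Their calls were therefore not tried under those filters. CEBPD passed in 10 of 28 alternatives, NFIL3 in 12 of 28 and PPARG in 13 of 27, all with the same direction. PPARGC1B, ESRRA, ESRRG, NRF1, GABPA, SIRT1, NRIP1 and MEF2C had no probe set under that symbol alone in the annotation used and were not analysed here.

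Of the PGC-1 family, PPRC1, the PGC-1-related coactivator, was the other member measured. It ran from 6.53 through a median of 6.87 to 7.02 in exercised pigs, against 6.33 through 6.42 to 6.58 in sedentary pigs. All 8 exercised pigs lay above the sedentary mean, so PPRC1 rose, by 0.39 on the log2 scale (limma, adjusted p = 0.00196), while PPARGC1A was -0.21 without passing. A dimmer PPRC1 probe set had a difference of 0.10 (limma, adjusted p = 0.547).

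Of the 18 transcription factor genes measured that PGC-1alpha docks on, 0 rose and 2 fell. The fall was called in 11.1% of them, against 4.91% of all named genes. PPARG, the fat-cell nuclear receptor, fell by 0.52 (limma, adjusted p = 0.0408), and HNF4A, a liver nuclear receptor, fell by 0.35 (limma, adjusted p = 0.0284), with mean log2 signals of 5.75 and 5.67 in exercised pigs against 6.26 and 6.02 in sedentary pigs. PPARA, the nuclear receptor for fatty acids in heart, had a difference of 0.06 (limma, adjusted p = 0.804). Its probe set was dim, at a mean log2 of 4.51 in exercised and 4.45 in sedentary pigs, below the 40th percentile of 5.57. The small PPARA difference therefore says little, and its other probe set is not given here. Of the 4 coactivator complex partners measured, among them MED1 of Mediator (0.08), NCOA2 (0.09) and SMARCD3 of the SWI/SNF complex (0.11), 0 passed. The MED1 probe set was also dim, at a mean log2 of 3.83 in exercised and 3.75 in sedentary pigs.

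Of the 23 genes measured that act upstream of PPARGC1A, 1 rose and 1 fell, or 4.35% each way, against 5.11% and 4.91% of all named genes. Both encode gamma subunits of AMP-activated protein kinase, which bind AMP. PRKAG1 averaged 9.90 ± 0.13 in exercised and 9.61 ± 0.17 in sedentary pigs (SD, n = 8 each) and rose by 0.29 (limma, adjusted p = 0.0301). PRKAG2 averaged 7.46 ± 0.38 in exercised and 8.34 ± 0.54 in sedentary pigs (SD, n = 8 each) and fell by 0.88 (limma, adjusted p = 0.0121). All 8 exercised pigs lay on the side named for each gene. PRKAA2, the catalytic subunit gene, had a difference of -0.14 (limma, adjusted p = 0.188). CREB1, the cAMP-responsive factor, had -0.46 on its brightest probe set (limma, adjusted p = 0.059) and 0.25 on the other (limma, adjusted p = 0.0238), so its probe sets disagreed.

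The genes known to be induced by cAMP and CREB, as PPARGC1A is, had the highest share of calls among the lists with over 1 gene measured: 0 of 14 rose and 6 fell, with a median difference of -0.42. That was 42.9% downward, against 4.91% of all named genes. The list was chosen with earlier results of these data known, so its share is not independent support. NR4A3, an immediate early nuclear receptor gene, had log2 signals of 6.24, 7.72, 6.80, 7.40, 7.40, 7.76, 8.57 and 6.94 in exercised pigs 1 to 8. Sedentary pigs 1 to 8 had 9.61, 9.38, 9.41, 8.91, 8.67, 8.29, 10.81 and 9.79 for NR4A3. Only exercised 7 reached the sedentary range, whose lowest pig was sedentary 6, and the mean fell by 2.01 on the log2 scale (limma, adjusted p = 0.00162). Its second probe set also fell, by 0.95 (limma, adjusted p = 0.00468).

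PCK1, the gene of the gluconeogenic enzyme phosphoenolpyruvate carboxykinase, ran from 5.03 to 5.33 in exercised pigs and from 5.37 to 5.71 in sedentary pigs. The groups did not overlap, as for 1.68% of all probe sets in that direction and 3.12% in either direction, and PCK1 fell by 0.35 (limma, adjusted p = 0.000875). Its probe set was dim, below the 40th percentile of mean level. CREM, a cAMP-responsive modulator gene, fell by 0.58, DUSP1, a phosphatase gene of MAP kinases, by 0.66, NFIL3, a basic leucine zipper repressor gene, by 0.49, and CEBPD, a C/EBP factor gene, by 0.64 (limma, adjusted p from 0.0211 to 0.0453). The 3 dimmer CREM probe sets and the 2 dimmer CEBPD probe sets were also below 0 and did not pass. In the 5 arrays with low poly-A control signal CEBPD had a difference of 0.10, against -0.88 in the other 11.

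Over the 16 arrays PPARGC1A had an r of 0.63 with CEBPD (rho = 0.54), 0.57 with DUSP1 (rho = 0.56), 0.50 with CREM (rho = 0.51), 0.49 with NFIL3 (rho = 0.39), 0.48 with PCK1 (rho = 0.53) and 0.47 with NR4A3 (rho = 0.41). The permutation p lay between 0.00935 and 0.0669 for r and between 0.027 and 0.14 for rho, and after adjustment over all probe sets between 0.484 and 0.5 for r and between 0.357 and 0.49 for rho. Within the 11 arrays with high poly-A control signal these r were between 0.28 and 0.54, and with the training and sex means taken out between 0.14 and 0.53. The 6 genes were chosen by their training difference, which had the same sign as that of PPARGC1A. Their r over the 16 arrays is therefore not independent of that choice. The r of the other 8 genes measured in that list is not given here.

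Of the 12 repressor genes measured, 1 rose and 1 fell: DNMT3B, a DNA methyltransferase gene, by 0.25 upward (limma, adjusted p = 0.0117), and HES1, a Notch target repressor gene, by -0.59 (limma, adjusted p = 0.00168). That was 8.33% each way, against 5.11% upward and 4.91% downward of all named genes. Of the 6 genes of mitochondrial DNA replication and transcription, 1 rose: MTERF3, a mitochondrial transcription regulator gene, by 0.42 (limma, adjusted p = 0.035), while its dimmer probe set had -0.01. TFAM, which packages and transcribes mitochondrial DNA and is a classical PGC-1alpha target, had -0.07 on its brightest probe set (limma, adjusted p = 0.646). Of the 7 genes of mitochondrial dynamics and turnover, 1 fell: MSTO1, a mitochondrial distribution gene, by 0.69 (limma, adjusted p = 0.000159). MSTO1 ran from 6.62 to 6.95 in exercised and from 7.08 to 7.72 in sedentary pigs. The groups did not overlap, as for 1.68% of all probe sets in that direction and 3.12% in either direction. The single calls among the 6 and the 7 mitochondrial genes were 16.7% upward and 14.3% downward, against 5.11% and 4.91% of all named genes.

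The known metabolic targets of PGC-1alpha gave no calls. Of 29 genes of respiratory complexes II to V and cytochrome c, 26 of fatty acid uptake and oxidation, 13 of the tricarboxylic acid cycle, 9 of mitochondrial antioxidant defence and 11 other muscle targets, 0 passed in either direction. Their median differences were 0.02, 0.04, 0.06, 0.06 and -0.06 in that order. Of all named genes, 5.11% passed upward and 4.91% downward. With the level filter at the 60th percentile, calls were fewer, at 0.804% of all probe sets kept. Most of the genes named below lay above that percentile. Whether the 0 calls differ from the share among genes of like level was not tested. In the respiratory chain the smallest p values belonged to COX8H (0.25) and COX7A2 (0.23), both of complex IV, and to the ATP synthase subunit gene ATP5L (0.15), with adjusted p from 0.0561 to 0.0886 in limma. A dimmer ATP5L probe set passed, at 0.64 (limma, adjusted p = 0.000826).

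Among fatty acid genes HADHB of the trifunctional protein had 0.21, the dehydrogenase genes ACADL 0.18 and HADH 0.13, and CPT1B, the muscle carnitine palmitoyltransferase gene, 0.03 (limma, adjusted p from 0.0724 to 0.911). PDK4, which encodes a kinase that restrains pyruvate oxidation, averaged 11.17 ± 0.96 in exercised and 11.95 ± 0.68 in sedentary pigs (SD, n = 8 each), a difference of -0.78 (limma, adjusted p = 0.206). The tricarboxylic acid cycle genes SUCLA2, IDH3A and IDH2 had differences of 0.17, 0.14 and 0.11, and the antioxidant genes PRDX3, CAT and TXN2 had 0.14, 0.13 and -0.12. Of the other muscle targets, the angiogenic factor gene VEGFA had -0.28, the slow troponin gene TNNI1 -0.83, the neurotrophin gene BDNF -0.47 and the lipid droplet gene CIDEA -0.28 (limma, adjusted p from 0.185 to 0.303).

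**Figure D5:**
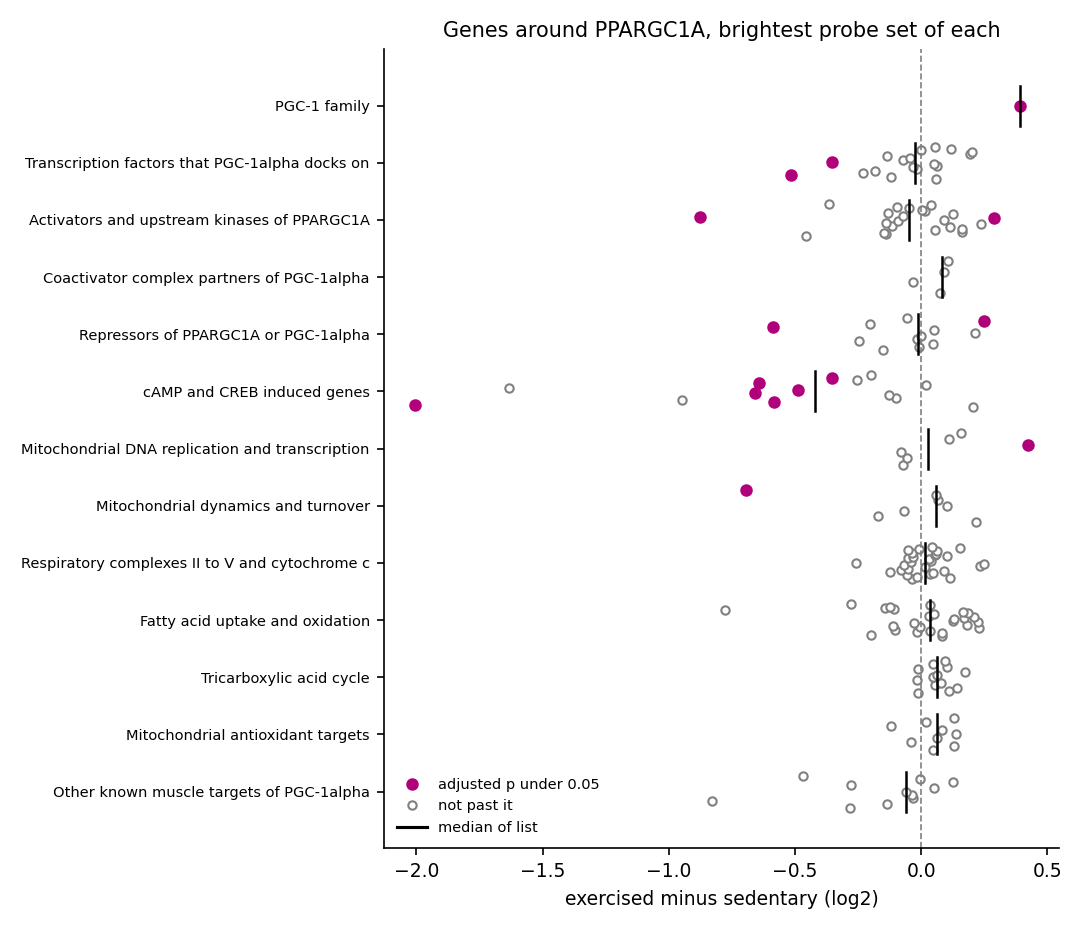
Difference between exercised and sedentary pigs on the log2 scale (horizontal axis) for the brightest probe set of each measured gene in the 13 lists around PPARGC1A, with the 15 genes past an adjusted p of 0.05 filled and the median of each list as a vertical line. The list of cAMP and CREB induced genes had 6 of 14 genes past the threshold, all lower in exercised pigs and down to -2.01 for NR4A3. Of all named genes, 4.91% passed in that direction.

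The genes whose pattern over the 16 arrays was most like that of PPARGC1A were found by Pearson's r. Named probe sets above the 40th percentile of mean level were ranked. For each gene the probe set with the largest absolute r was taken, which for IGSF1 and DCAF8 was not the brightest. The 8 highest were GSE1, a coiled-coil protein gene (r = 0.77), FAXDC2 (0.75), the immunoglobulin superfamily gene IGSF1 (0.75), the opioid peptide precursor gene PDYN (0.73), PRUNE1 (0.72), the nucleolar GTPase gene GNL3 (0.72), SMARCD1 of the SWI/SNF complex (0.72) and DCAF8 (0.72). The 4 lowest were the endothelial tight junction gene CLDN5 (r = -0.84), the caspase gene CASP6 (-0.79), the initiation factor subunit gene EIF2B2 (-0.78) and LOC100510975 (-0.78). None of the 12 was an NDUF gene. Within the 11 arrays with high poly-A control signal the 8 ran from 0.65 to 0.80 and the 4 from -0.84 to -0.75. Of the 12 genes PDYN was the 1 past the threshold for training, at -1.17 (limma, adjusted p = 0.0289). With the training and sex means taken out, 1 of the 12 stayed among the 12 most alike, FAXDC2 at 0.83, and a dimmer TFAM probe set entered at the low end with -0.83.

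Of the marker lists for 11 cell types, mean levels of 10 had an r with PPARGC1A between -0.45 (lymphocyte, 6 of 7 genes measured) and 0.17 (cardiomyocyte, 9 of 10 measured). The endothelial list, of which all 7 genes were measured, had 0.14. The remaining list, atrial cardiomyocyte with MYL4 and NPPA measured of 3 genes, had r = 0.67 (permutation p = 0.005, adjusted over the 11 lists 0.055) and rho = 0.70 (permutation p = 0.00347, adjusted 0.0382). Its mean level, as a log2 deviation from the 16-array mean, ran from -0.95 to 0.32 in exercised pigs and from -0.52 to 0.97 in sedentary pigs, a difference of -0.55 (exact permutation p = 0.0311, adjusted 0.291). Without the 2 arrays farthest from the median PPARGC1A level r was 0.71, and within the 11 arrays with high poly-A control signal it was 0.73. With the training and sex means taken out it was 0.55. NPPA and MYL4 are expressed in the developing and loaded ventricle as well as in atrium, and the part of these genes in the PPARGC1A values was not tested.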

How the data were processed

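Biotin-labelled cRNA of 16 left ventricles was measured on a 1-colour array, per the labels' protocols. The authors deposited log2 signals per probe set; summarisation and normalization are not given in the sources used here, so log2 values were used as deposited. Of 24123 probe sets, 188 control probe sets were left out and 23935 tested. The platform annotation gave 1 symbol for 10069 probe sets (6765 genes), several for 198 and none for 13668, and genes were named only from probe sets with 1 symbol. No genome build or sequence was used.

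Means for the 4 training and sex groups were fitted with limma 3.58.1 in R 4.3.3 (lmFit, eBayes). P-values were adjusted after Benjamini and Hochberg over the whole array, with 0.05 as the threshold. The brightest probe set stood for a gene, except in the ranking of genes most like PPARGC1A. There the probe set with the largest absolute r did. Exact permutation tests and correlations with 100000 resamples, two-sided, used scipy 1.17.1 and numpy 2.4.6. The limma training fit, the permutation correlations and the exact permutation test were checked on simulated data, and the other steps were not. Each sample is a separate animal. The members, gene lists and markers were chosen with earlier results of these data known.

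Genes were named by rule: PPARGC1A and 17 fixed relatives where measured; of each list the genes past the threshold, otherwise the 3 with the smallest p; of the NDUF genes the 4 highest and 4 lowest in r and any past the threshold; and the 8 highest and 4 lowest in r over named probe sets above the 40th percentile. The marker genes fall outside it. Alternatives were quantile normalization, median centring, level filters at the 40th and 60th percentile, trended and robust eBayes, array weights, a replicate block, the array set as a block or restricted to 11 arrays, no sex term, a threshold of 0.1, the mean of a gene's probe sets, and leaving out each array. Correlations within each training group and permutation tests within each sex were added after seeing the data. The number of arrays limits the precision.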

Additional observations from a re-analysis of the deposited data

Results flagged for a closer look

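In each group of 8, and for PPARGC1A also in each group of 4, the gap between the most extreme pig and its neighbour was set against the group's range. This was done for 62 named genes in 128 groups, of which 7, or 5.47%, exceeded the 95% critical value, where chance gives about 1 in 20.

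PPARGC1A in sedentary 5 was 9.58 on the log2 scale, with the next sedentary pig at 10.22, and a gap of 0.576 of the range. In the same pig FAXDC2, one of the genes most like PPARGC1A, was 5.13 with the next at 5.92, and NDUFS5 was 12.15 with the next at 12.05. Exercised 5 stood apart upward in IDH2, at 13.29 with the next at 13.05, and in PRDX3, at 12.44 with the next at 12.22. PPARA was 5.02 in exercised 7, with the next exercised pig at 4.59, and 3.92 in sedentary 4, with the next sedentary pig at 4.40. No named gene had a training effect that differed between the sexes at an adjusted p under 0.05 in limma.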

How the results depend on the processing

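The training difference of PPARGC1A stayed below 0 and above an adjusted p of 0.05 in 27 of 28 alternatives. Leaving out 1 array gave -0.33 to -0.15, and without sedentary 5 it passed. The level filters, trended and robust eBayes, no sex term and the threshold of 0.1 could not change this estimate. Nor could the mean of a gene's probe sets, as PPARGC1A has 1. Those alternatives therefore did not try the sign. The female difference kept its sign and side in all 25, from -0.49 to -0.37 with 1 array left out. The male difference changed sign with 3 alternatives: it was -0.0201 with the replicate block, -0.09 without exercised 5 and -0.22 without sedentary 5, and it ran from -0.22 to 0.15 with 1 array left out. The difference between the sexes in the training effect ran from -0.60 to -0.22 and the sex difference from -0.33 to -0.14 with 1 array left out, and neither passed in any of 25 alternatives. The exact permutation test gave differences of -0.32 to -0.16 with 1 array left out, -0.45 in females alone and 0.0225 in castrated males alone.

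The NDUF correlation count was 0 in all 26 alternatives that gave a test. A lone probe set at the smallest possible permutation p of 1e-05 could not pass after the adjustment. The smallest p for r among the NDUF genes over 16 arrays was 0.01, above that limit. The same count in all alternatives still says little about single genes. The median r of the NDUF genes was 0.13 in the 8 exercised arrays, and otherwise moved by less than its jackknife SE of 0.181. The NDUF count for training was 0 with either level filter and with the mean of a gene's probe sets, 2 with array weights and with the replicate block, 3 with the array set as a block and at a threshold of 0.1, and 1 to 2 with 1 array left out. The count for the 13 lists was 6 above the 40th and 2 above the 60th percentile of level, 25 at a threshold of 0.1, and 9 to 16 with 1 array left out, the lowest without sedentary 3. Over all probe sets the level filters left 631 and 77 calls, against 3197. Of the 12 genes most like PPARGC1A, 9 were shared when all named probe sets were ranked and 1 when the training and sex means were taken out. No other probe set carried PPARGC1A as its single symbol, so none could be tried, and probe sets without a symbol were not searched.

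Same-numbered exercised and sedentary pigs were not treated as pairs: the correlation of their deviations was over 0.1 in 5 of 8 pairs and as low as -0.03, and 3 of 16 arrays were most like the one with their own number. With the replicate block the PPARGC1A difference was -0.21 and the lists had 19 calls.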
